A study of Mus musculus with 12 samples.

Results

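The transcripts described here are 8 genes that mark fibroblasts and are not collagens, Pdgfra, Dcn, Lum, Dpt, Pi16, Gas1, Clec3b and Cd34, and they were taken by gene name from the 12975 genes counted in the series. Their levels were followed in ribosome pull-downs from the small intestinal muscularis of mice with a tamoxifen-inducible Cre (CreERT2) and the Rpl22HA allele (B6J.129(Cg)-Rpl22tm1.1Psam/SjJ), before and 3 h after surgical manipulation of the gut. The Cre, under a promoter that is active in enteric glia, adds an HA tag to the ribosomal protein Rpl22, so that an anti-HA antibody pulls down RNA held on the ribosomes of tagged cells. The study used this to follow glia, and the fibroblast transcripts were measured in the same libraries without having been the cell type aimed at.

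The 12 libraries came from 6 mice in 4 groups of 3. HA T0 was the anti-HA pull-down of naive mice, HA T3 the anti-HA pull-down 3 h after manipulation, and IgG T0 and IgG T3 were pull-downs of the same lysates with a mouse IgG1 that has no target in the tissue. All 4 groups carried both alleles and had been given tamoxifen, as 2 intraperitoneal injections of 100 µl at 15 mg/ml, in mice aged 10 to 12 weeks that were killed 3 to 4 weeks after the first injection. Each lysate was made from the whole muscularis and then split between the antibodies, so an HA library and the IgG library of the same animal shared their starting material. Mice were numbered 1, 2 and 4 at T0 and 1, 3 and 4 at T3, and a number shared between the time points did not stand for the same mouse.

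Library totals ran from 88136 to 2870591 counts, a 32.6-fold range, with IgG T3 the shallowest group at 88136, 92022 and 248522 counts. Levels are given as CPM, the count scaled to the library total. Rpl22, the tagged gene, was at 83.3 ± 9.02 CPM in HA T0 and 65.2 ± 5.89 CPM in HA T3 against 23.8 ± 7.60 and 24.4 ± 12.0 CPM in the IgG groups (mean ± SD, n = 3). Of 14 glial genes tested, the anti-HA libraries were higher for 13 at T0 and for 9 at T3, and lower for none. With time 4 of the 14 rose and 1 fell in HA, and 1 of 6 rose in IgG. Smooth muscle genes ran the other way, with 13 of 13 lower in HA at T0 and 11 of 13 at T3.

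Fibroblasts of the muscularis lie between and around the muscle layers, where they build and maintain the extracellular matrix. Decorin (Dcn) and lumican (Lum) are small leucine-rich proteoglycans that bind collagen fibrils and regulate their assembly, and dermatopontin (Dpt) is a small matrix protein that binds decorin. Pdgfra is the receptor tyrosine kinase for platelet-derived growth factors, Gas1 is a membrane-anchored co-receptor for hedgehog ligands, Cd34 is a sialomucin of the cell surface, Clec3b (tetranectin) is a secreted plasminogen-binding lectin, and Pi16 is a peptidase inhibitor that marks adventitial fibroblasts. Several of these transcripts are found in other cells as well, Cd34 in endothelium and Dcn in mesothelium among them. In a bulk library, fewer cells of a type and less RNA per cell cannot be told apart.

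In the GENCODE M21 annotation of GRCm38 the genes lie on several chromosomes. Dcn (chr10:97479609-97518143, plus strand) and Lum (chr10:97565128-97572703, plus strand) are neighbours, 46984 bases apart with 0 genes between them. Pdgfra is at chr5:75152292-75198215, Pi16 at chr17:29317680-29330593 and Clec3b at chr9:123150946-123157432, each on the plus strand, while Gas1 at chr13:60174405-60177365 is on the minus strand. Dpt (chr1:164796644-164824266) and Cd34 (chr1:194938819-194961279) are on the plus strand. In M21 each has an antisense gene, Gm32569 and Gm16897, reaching into the 3′ window used for counting. The authors named annotation release 10, so their windows may have differed. Whether the counting used strand is not given in the sources used here. It is thus not known whether reads of the antisense genes bear on the counts of Dpt and Cd34.

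Promoter sequences were read from RefSeq (GRCm38.p6) for 5 of the 8 genes, and the 3 shown belong to genes that were lower in the HA pull-down at both time points. Each is 300 bases long, from 250 before the RefSeq start site to 50 after it, written 5′ to 3′ on the strand of the gene. Capitals mark matches on either strand to any of 4 motifs, which are the TATA box (TATAAA), the box of the letters CCAAT, the AP-1 site (TGANTCA) and the GC box (GGGCGG); no match overlapped another.
Gas1 (chr13:60177486-60177785, minus strand): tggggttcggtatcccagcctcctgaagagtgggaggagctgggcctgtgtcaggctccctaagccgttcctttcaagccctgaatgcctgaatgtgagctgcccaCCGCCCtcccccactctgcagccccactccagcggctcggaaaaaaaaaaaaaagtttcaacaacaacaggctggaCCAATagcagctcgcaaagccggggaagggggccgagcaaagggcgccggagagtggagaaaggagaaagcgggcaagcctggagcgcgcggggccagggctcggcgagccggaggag
Dpt (chr1:164796413-164796712, plus strand): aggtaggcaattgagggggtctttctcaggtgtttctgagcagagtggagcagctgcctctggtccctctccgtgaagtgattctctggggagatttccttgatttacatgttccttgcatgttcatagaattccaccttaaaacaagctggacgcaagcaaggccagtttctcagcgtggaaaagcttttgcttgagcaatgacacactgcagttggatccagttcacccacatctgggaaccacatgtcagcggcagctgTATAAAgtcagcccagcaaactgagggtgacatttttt
Pdgfra (chr5:75152001-75152300, plus strand): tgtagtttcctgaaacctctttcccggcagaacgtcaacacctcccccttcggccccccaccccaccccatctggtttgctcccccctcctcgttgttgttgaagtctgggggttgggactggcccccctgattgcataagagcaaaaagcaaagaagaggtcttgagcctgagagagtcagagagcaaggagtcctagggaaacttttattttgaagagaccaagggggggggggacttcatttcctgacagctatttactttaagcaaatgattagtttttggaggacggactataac
The Gas1 window held 17 CpG and 62.3% GC, with a CCAAT match at −68 and a GC box on the opposite strand at −144 from the start site. The Dpt window held 4 CpG and 48.7% GC, with a TATA box match 13 bases after the annotated start, and the Pdgfra window held 5 CpG and 51.0% GC with none of the 4 motifs. Over all 32851 promoters of the table the median was 7 CpG and 52.7% GC, and the TATA box was found in 13.6%, the CCAAT letters in 37.4%, the AP-1 site in 7.81% and the GC box in 35.7%. The 3 windows thus had no motif in common.

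The first comparison asked whether the fibroblast transcripts took a larger or a smaller share of the HA libraries than of the IgG libraries. For most of them the share was smaller. It is a share of the library, and the amount of RNA pulled down is not measured by it. At T0, 6 of the 7 genes that could be tested were lower in HA than in IgG (Dcn, Lum, Dpt, Pdgfra, Gas1 and Cd34), by 1.95-fold for Gas1 to 6.13-fold for Lum. At T3, 5 of the 6 tested were lower (Dcn, Lum, Dpt, Pdgfra and Gas1), by 3.04-fold to 10.3-fold, and no gene of the 8 was higher at either time. Across all genes tested, 14.4% were called lower and 16.0% higher at T0, and 10.2% lower and 11.8% higher at T3. The median log2 difference of the tested fibroblast genes was −1.35 at T0 and −1.84 at T3, beside −0.02 and 0.02 over all genes. Tests were edgeR quasi-likelihood tests on the counts with Benjamini-Hochberg adjustment over all genes tested, at a threshold of 0.05, and SE is that of the log2 fold change. Pi16 was too low to be tested in either comparison and Cd34 too low at T3.

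**Figure D1:**
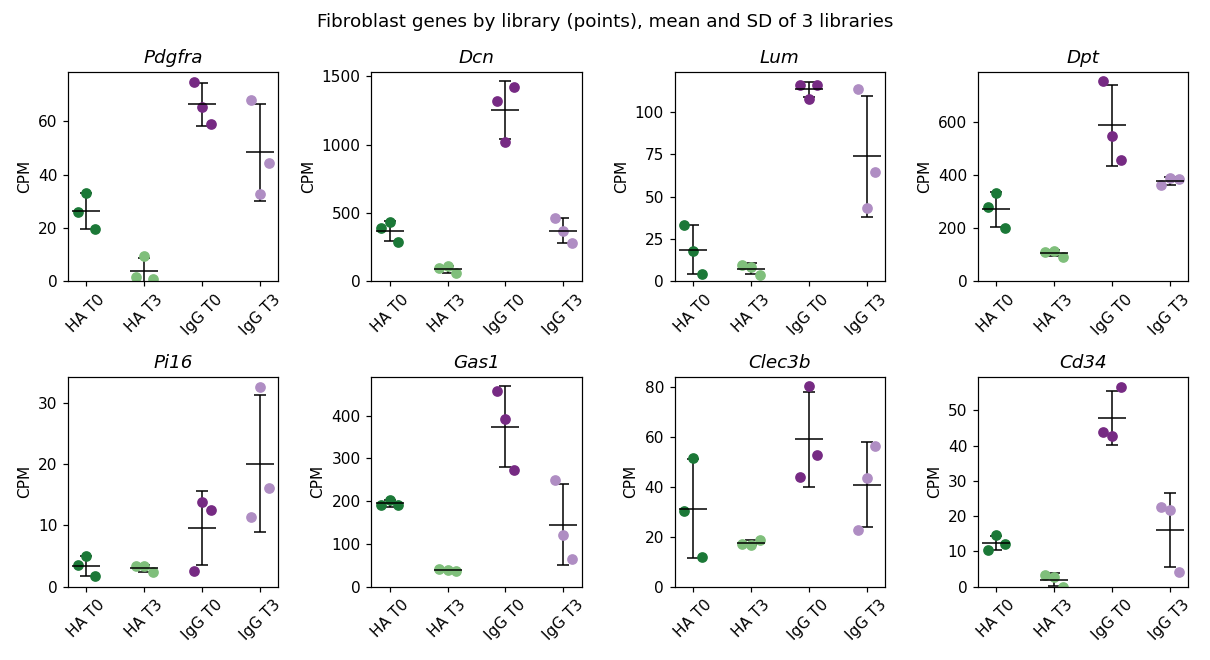
CPM of the 8 fibroblast genes in the 12 libraries, with a panel and a linear axis for each gene. Points are libraries, bars the mean and SD of 3 libraries. In Dcn, Dpt, Lum, Pdgfra, Gas1 and Cd34 the 3 HA libraries lie below the 3 IgG libraries at each time point.

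Taking the single libraries, the HA and IgG groups did not overlap for 6 of the 7 tested genes at T0, each lower in HA. At T3 they did not overlap for 6 of 6 tested, in the same direction. Non-overlap in that direction was seen in 20.1% of all genes tested at T0 and 16.4% at T3. The exception at T0 was Clec3b, and Pi16, not tested, overlapped there as well. Pi16 and Cd34, not tested at T3, were lower in HA there without overlap. A single count in an IgG T3 library stood at 4.02 CPM or more, above the HA T3 values of both genes (at most 3.34 and 3.27 CPM). For Clec3b the gap at T3 rested on 2 counts in IgG T3 animal 1, at 22.7 CPM against at most 18.7 CPM in HA T3. Because the HA and IgG libraries enter the time comparisons as well, the contrasts described in the paragraphs that follow share libraries and are given side by side.

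Dcn, the collagen-binding proteoglycan, was at 388.5, 430.8 and 286.0 CPM in HA T0 (animals 1, 2 and 4) and at 1321, 1018 and 1420 CPM in IgG T0. At T3 it was at 94.9, 111.0 and 60.7 CPM in HA (animals 1, 3 and 4) and at 465.2, 369.5 and 277.6 CPM in IgG. Every HA library thus stood below every IgG library of its time point, and the range of IgG T3 overlapped that of HA T0. The difference between HA and IgG was −1.79 on the log2 scale at T0 (SE 0.22, edgeR adjusted p = 5.04e-05) and −1.92 at T3 (SE 0.29, edgeR adjusted p = 0.000173). With time the HA level fell by 1.79 (SE 0.23, edgeR adjusted p = 7.90e-06) and the IgG level fell by 1.82 (SE 0.31, edgeR adjusted p = 0.00217). Dcn and Gas1 were the genes called in all 4 comparisons, and for Dcn each call held under every alternative setting run.

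Lum, the proteoglycan encoded next to Dcn, was at 33.4, 17.9 and 4.53 CPM in HA T0 and at 115.9, 108.0 and 116.3 CPM in IgG T0. After manipulation the values were 9.82, 8.69 and 3.89 CPM in HA and at 113.5, 43.5 and 64.4 CPM in IgG. The IgG T0 libraries were close together, while the HA T0 libraries spread widely and animal 4, with 13 counts, lay inside the range of HA T3. Lum was lower in HA with a log2 fold change of −2.62 at T0 (SE 0.65, edgeR adjusted p = 0.0254) and of −3.14 at T3 (SE 0.50, edgeR adjusted p = 0.000223). The call at T0 was lost without HA T0 animal 2 (adjusted p = 0.103) and without IgG T0 animal 1, 2 or 4 (adjusted p = 0.0756, 0.0892 and 0.0792), within a range over alternatives of 2.97e-06 to 0.103, and without HA T0 animal 1 the log2 fold change was −3.44. The time comparison gave −1.06 in HA (SE 0.83, edgeR adjusted p = 0.377) and −0.67 in IgG (SE 0.39, edgeR adjusted p = 0.342), and the groups overlapped in both. Leaving out HA T0 animal 4 took the HA time comparison to −1.59 (adjusted p = 0.00350), and leaving out animal 1 took it to −0.23 (range of adjusted p over alternatives 0.00350 to 0.797).

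Dpt, the decorin-binding matrix protein, was at 281.8, 332.5 and 201.7 CPM in HA T0 and at 757.3, 550.2 and 459.0 CPM in IgG T0. The T3 values were 109.7, 115.7 and 92.7 CPM in HA and at 363.1, 391.2 and 386.3 CPM in IgG. No 2 of the 4 groups overlapped, and the order was IgG T0, IgG T3, HA T0 and HA T3 from high to low. Dpt was lower in HA with a log2 fold change of −1.13 at T0 (SE 0.25, edgeR adjusted p = 0.00342) and of −1.75 at T3 (SE 0.25, edgeR adjusted p = 9.49e-05). With time it fell by 1.10 in HA (SE 0.21, edgeR adjusted p = 0.000391), while the IgG difference of −0.65 did not pass (SE 0.29, edgeR adjusted p = 0.217, 95% interval −1.27 to −0.02).

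Pdgfra, the growth factor receptor, was at 26.1, 33.0 and 19.5 CPM in HA T0 and at 74.7, 65.1 and 58.9 CPM in IgG T0. At T3 it was at 1.64, 9.36 and 0.779 CPM in HA and at 68.1, 32.6 and 44.3 CPM in IgG. The HA T3 values stood for 2, 14 and 1 counts, so that animal 3 held most of the Pdgfra counts of that group. Pdgfra was lower in HA with a log2 fold change of −1.35 at T0 (SE 0.28, edgeR adjusted p = 0.00237) and of −3.36 at T3 (SE 0.69, edgeR adjusted p = 0.00190). Without HA T3 animal 3 the T3 value was −5.06 (adjusted p = 0.00250, range over alternatives 1.14e-05 to 0.0274). Over the pooled libraries at T3 the HA to IgG ratio of CPM was 0.0911, from 17 against 20 counts, with a 95% interval of 0.0448 to 0.183 that covers counting error only. With time Pdgfra fell by 2.36 in HA (SE 0.54, edgeR adjusted p = 0.00450) and gave −4.10 without HA T3 animal 3 (adjusted p = 1.59e-05, range over alternatives 7.49e-07 to 0.0203). The pooled HA ratio of T3 to T0 was 0.169 (interval 0.0961 to 0.278). In IgG the time difference was −0.48 (SE 0.42, edgeR adjusted p = 0.562) and the groups overlapped.

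Gas1, the hedgehog co-receptor, was at 190.0, 203.4 and 190.2 CPM in HA T0 and at 458.5, 392.5 and 272.9 CPM in IgG T0. The T3 levels were 41.7, 39.5 and 36.6 CPM in HA and at 249.6, 119.5 and 64.4 CPM in IgG. Replicates were tight in both HA groups, whereas the IgG T3 libraries spread from below to above the HA T0 level. Gas1 was lower in HA with a log2 fold change of −0.96 at T0 (SE 0.21, edgeR adjusted p = 0.00372) and of −1.60 at T3 (SE 0.40, edgeR adjusted p = 0.00758). The T3 call was lost without IgG T3 animal 1 (−0.91, adjusted p = 0.109) and without both IgG T3 libraries with the fewest counts, animals 1 and 3, (−0.58, adjusted p = 0.390, range over alternatives 0.00175 to 0.390). With time Gas1 fell by 2.04 in HA (SE 0.19, edgeR adjusted p = 3.94e-08), the smallest adjusted p of the 8 genes in any of the contrasts. In IgG it fell by 1.51 (SE 0.41, edgeR adjusted p = 0.0474), a call lost without IgG T0 animal 1, 2 or 4 (adjusted p = 0.114, 0.139 and 0.0624) and without IgG T3 animal 3 or 4 (adjusted p = 0.121 and 0.172), within a range over alternatives of 0.000635 to 0.172. Without IgG T3 animal 1 the IgG change was −2.14.

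Cd34, the surface sialomucin, was at 10.4, 14.5 and 12.2 CPM in HA T0 and at 43.8, 42.9 and 56.6 CPM in IgG T0, with a log2 fold change of −2.01 (SE 0.29, edgeR adjusted p = 0.000157). After manipulation Cd34 was at 3.27, 2.67 and 0 CPM in HA, from 4, 4 and 0 counts, and at 22.7, 21.7 and 4.02 CPM in IgG, from 2, 2 and 1 counts. The highest HA T3 library, with 4 counts, lay just under the lowest IgG T3 library, with 1 count. Every IgG T3 library was under the limit of 3 counts. The pooled HA to IgG ratio at T3 was 0.171, with an interval for counting error of 0.0494 to 0.666. With time Cd34 fell by 2.32 in HA (SE 0.54, edgeR adjusted p = 0.00246). In IgG the pooled count went from 115 at T0 to 5 at T3, a CPM ratio of 0.229 (counting interval 0.0731 to 0.551), and the edgeR adjusted p was 0.0877. Endothelial genes are another source of Cd34. At T0, of 12 listed and 5 tested, 4 had a negative log2 fold change and 1 a positive one, with a median of −0.86. Vwf and Egfl7 were called lower in HA (−2.33 and −1.40), and Eng was called higher (2.46). At T3 Eng was higher and Vwf lower of 3 tested, Tek was at 0 counts in each IgG T3 library, and with time Cldn5 rose in HA (2.42) of 5 tested with 0 of 1 passing in IgG. The summed level of the 12 endothelial genes was 448.3 to 488.0 CPM in HA T0 and 363.4 to 439.3 CPM in HA T3. In IgG it was 164.9 to 236.5 CPM at T0 and 181.1 to 271.7 CPM at T3. Most of the HA sums was Eng, at 400.1 to 443.8 CPM in HA T0 and 309.4 to 383.2 CPM in HA T3. Eng was at 65.1 to 90.8 CPM in IgG T0 and 88.5 to 152.1 CPM in IgG T3. The other listed genes each had a lower mean CPM in HA T0 than in IgG T0, several from few counts. The part of the endothelial genes in the Cd34 result was not tested.

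Clec3b, the plasminogen-binding lectin, was at 30.3, 51.4 and 11.8 CPM in HA T0 and at 43.8, 80.6 and 52.7 CPM in IgG T0. At T3 it was at 17.2, 16.7 and 18.7 CPM in HA and at 22.7, 43.5 and 56.3 CPM in IgG. The IgG T3 values stood for 2, 4 and 14 counts. In the order IgG T0, IgG T3, HA T0 and HA T3 each group overlapped the next, and HA T3 lay inside the range of HA T0 and below IgG T3. The difference between HA and IgG was −0.97 at T0 (SE 0.50, edgeR adjusted p = 0.186) and −1.29 at T3 (SE 0.46, edgeR adjusted p = 0.0504). With the animal as a block, which pairs the pull-downs of each lysate, the T0 difference was −1.15 and passed (SE 0.31, edgeR adjusted p = 0.00506), as it did without HA T0 animal 2 (−1.50, adjusted p = 0.0263, range over alternatives 0.00506 to 0.460). At T3 the call depended on the setting and passed without IgG T3 animal 1 (adjusted p = 0.0427) and with DESeq2 (adjusted p = 0.0476). It did not pass when blocked on the mouse (−1.19, adjusted p = 0.121) or without IgG T3 animal 4 (−0.65, adjusted p = 0.615), the highest value in a range of 0.0349 to 0.615. The time comparison gave −0.54 in HA (SE 0.49, edgeR adjusted p = 0.430; 0.13 with the mouse number as a block) and −0.40 in IgG (SE 0.46, edgeR adjusted p = 0.663). Without HA T0 animal 4 the HA value was −0.99 (adjusted p = 0.0147, range over alternatives 0.0147 to 0.988).

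Pi16, the adventitial peptidase inhibitor, was the lowest in counts, with 9, 9 and 5 counts in HA T0 and 4, 5 and 3 in HA T3 against 1, 8 and 16 in IgG T0 and 1, 3 and 4 in IgG T3. These were 3.41 ± 1.64, 2.98 ± 0.563, 9.56 ± 6.09 and 20.0 ± 11.2 CPM (mean ± SD, n = 3). The pooled HA to IgG ratio was 0.286 at T0 (interval 0.155 to 0.526) and 0.161 at T3 (interval 0.0604 to 0.453), and the pooled ratio of T3 to T0 was 0.947 in HA (interval 0.430 to 1.98) and 1.69 in IgG (interval 0.658 to 3.86), all for counting error only. The pooled counts of Pi16 were thus lower in HA, but they leave out variation between animals, and the HA and IgG libraries overlapped at T0. Without a count filter the T0 difference was −1.59 and did not pass (edgeR adjusted p = 0.0616). At T3 it was −2.28 (edgeR adjusted p = 0.0447), resting on 8 IgG counts. A change with time was not detectable at this depth.

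**Figure D2:**
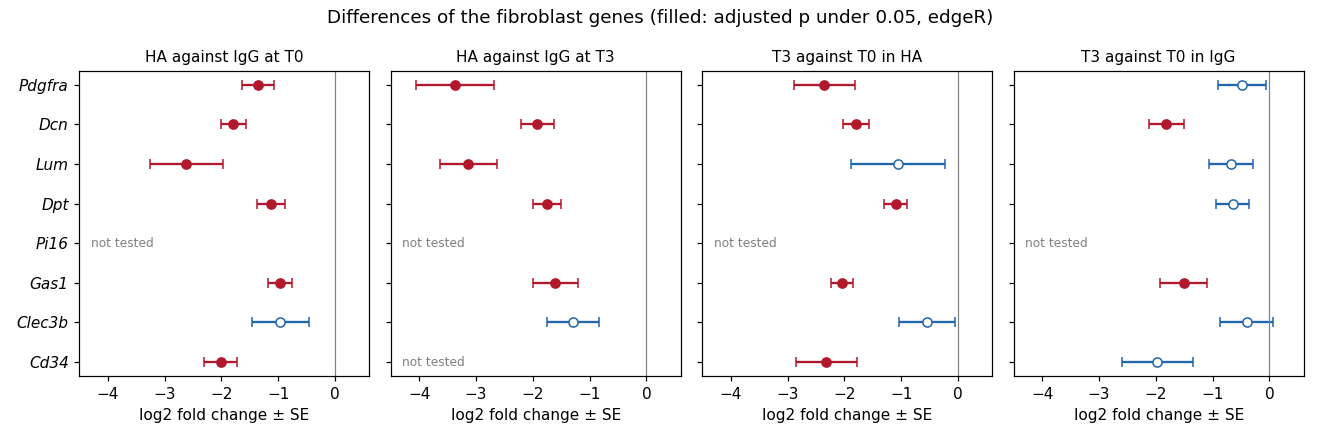
Log2 fold change ± SE of the fibroblast genes in the 4 comparisons (edgeR), filled where the adjusted p was under 0.05 and open otherwise. The tested values are negative in each panel, with 6, 5, 5 and 2 of them filled from left to right. Pi16 was not tested in any panel, and Cd34 was not tested between HA and IgG at T3.

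The second comparison asked how these transcripts changed between the naive state and 3 h after manipulation. In the HA pull-down 5 of 7 tested genes fell (Cd34, Dcn, Dpt, Gas1 and Pdgfra), by 2.14-fold for Dpt to 5.12-fold for Pdgfra, beside 15.1% of all genes called lower and 18.7% higher. In the IgG pull-down 2 of 7 fell (Dcn and Gas1), beside 1.03% lower and 4.43% higher, and Gas1 was close to the threshold. The median log2 change of the tested genes was −1.79 in HA and −0.67 in IgG, with −0.02 over all genes in each. With T3 lower, the groups did not overlap for 5 of 7 tested genes in HA and for 4 of 7 in IgG (Cd34, Dcn, Dpt and Gas1). Of all genes tested, 35.2% and 12.6% did the same. When HA libraries were scaled by their totals alone the median of all genes in the HA time comparison moved to −0.29 and the calls over all genes from 1765 higher and 1422 lower to 1202 higher and 2660 lower. The same 5 fibroblast genes were called lower with that scaling, at log2 values of −1.36 for Dpt to −2.62 for Pdgfra.

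An interaction term over all 12 libraries compared the time change of the antibodies, and in that fit each of the 8 genes could be tested. None passed (edgeR), and 0.330% of all genes did. The interaction of Pdgfra was −1.79 (SE 0.71, unadjusted p = 0.0190 and adjusted p = 0.365 by edgeR, range of adjusted p over alternatives 0.0584 to 0.653), on the side of a larger fall in HA. Without HA T3 animal 3 it was −3.56 (adjusted p = 0.0584). At an unadjusted p under 0.05 Pdgfra was 1 of the 8 genes, beside 1081 of 10314 genes (10.5%) in all. The interaction of Dcn was 0.13 (SE 0.37, 95% interval −0.63 to 0.89), and those of the other genes ran from −0.63 for Pi16 to −0.07 for Clec3b, with signs that changed under some settings for Dcn, Lum, Gas1, Clec3b and Cd34, beside a median of 0.18 over all genes. That median moved to −0.18 with scaling by totals, under which Dcn was at −0.25.

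Summed over the 8 genes, the level was 964.0, 1088 and 727.7 CPM in HA T0 and 281.6, 306.9 and 215.7 CPM in HA T3. In IgG it was 2818, 2271 and 2448 CPM at T0 and 1316, 1054 and 913.4 CPM at T3. IgG T0 was the highest group and HA T3 the lowest without overlap, while HA T0 and IgG T3 overlapped. The composition of the sum moved as well. Dcn made up 39.3% to 40.3% of the counts of the 8 genes in HA T0, 28.2% to 36.2% in HA T3, 44.8% to 58.0% in IgG T0 and 30.4% to 35.3% in IgG T3. The share of Gas1 was 18.7% to 26.1% in HA T0 and 12.9% to 17.0% in HA T3. In IgG the Gas1 share was 11.1% to 17.3% at T0 and 7.05% to 19.0% at T3, with overlap. That of Dpt was 27.7% to 30.5% in HA T0 and 37.7% to 43.0% in HA T3. The Dpt share was higher at T3 in IgG as well, at 18.7% to 26.9% at T0 and 27.6% to 42.3% at T3. These are shares of counts, with no test.

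**Figure D3:**
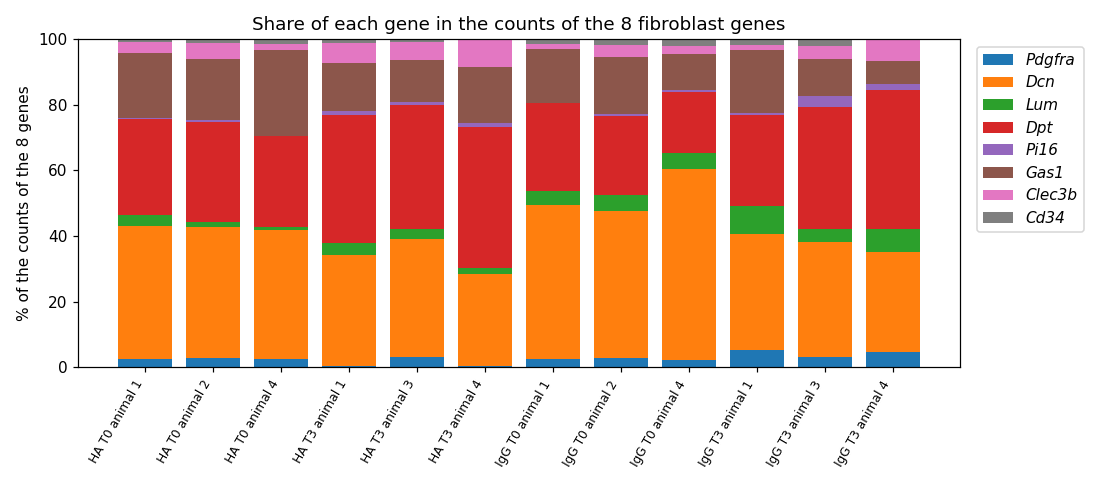
Share of each gene in the counts of the 8 fibroblast genes, in %, for each of the 12 libraries. Dcn, Dpt and Gas1 make up most of the counts in every library, and the Dcn share is highest in the IgG T0 libraries.

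Other small leucine-rich proteoglycans split between the pull-downs at T0. Of 12 listed, 8 were counted and 7 tested, with 5 lower in HA and 2 higher. Aspn (asporin) was lower with a log2 fold change of −2.70 and Prelp with −0.97, and Podn, Fmod and Ogn were lower as well. Bgn (biglycan) was higher with 0.88, and Ecm2 with 2.27, from 2 counts in each IgG T0 library. At T3, Prelp, Ogn and Aspn were lower (−2.04, −2.73 and −2.71) and Bgn higher (0.86) among 4 tested. With time 1 of 6 fell in HA, Prelp (−1.77), and 0 of 4 passed in IgG. Dcn and Lum thus lay with Aspn, Prelp and Ogn below the IgG level at both times and apart from Bgn, by their log2 differences.

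Collagens made by fibroblasts were nearer to even. Of 8 tested at T0, 3 were lower in HA (Col3a1 −1.19, Col1a2 −1.08 and Col1a1 −0.85) and none higher, with a median of −0.15, and at T3 Col1a2 alone of 7 passed (−1.62), with a median of −0.66. With time 4 of 8 fell in HA, among them Col6a3 (−1.12), Col1a2 (−0.86) and Col6a2 (−0.80), and Col5a1 rose (0.71). In IgG Col3a1 alone of 7 fell (−1.92).

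Other matrix and secreted proteins known from fibroblasts went in both directions. At T0, 11 of 22 were higher in HA, led by Sparc (2.76), Sfrp1 (2.51) and Fbln2 (2.97), and 6 were lower, led by Abi3bp (−2.59), Igfbp6 (−1.57) and Fn1 (−1.60). At T3, 9 of 19 were higher and 4 lower, with Sfrp1, a secreted Wnt antagonist, at 2.44 and fibronectin (Fn1) at −2.57. With time 5 of 21 fell in HA, led by Igfbp6 (−2.76), complement C3 (−2.17) and Fn1 (−0.97), and 4 rose, among them Loxl1 (0.64), Sfrp1 (0.60) and Timp2 (0.51). In IgG, 3 of 19 fell, Igfbp6 (−2.85), C3 (−2.14) and Pcolce (−1.22). Genes listed as fibroblast products were thus found on both sides of the HA and IgG comparison.

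Between the antibodies, Pdgfra was on the other side from the PDGF pathway genes that passed. Of the PDGF ligands and receptors other than Pdgfra, 3 of the 4 that could be tested at T0 were higher in HA, Pdgfb (3.54), Pdgfrb (1.98) and Pdgfa (0.87), and 3 of 3 at T3 (3.39, 1.71 and 1.73). The IgG T3 libraries held 0 to 2 counts of Pdgfb and 2 or 3 of Pdgfrb, so their T3 values rest on few counts. With time Pdgfa rose in HA (1.15), and Pdgfc fell (−0.88) as Pdgfra did, of 4 tested. Among hedgehog pathway genes, to which Gas1 belongs, Gli3 was lower in HA at T0 (−0.97) and Dhh, at 0 counts in each IgG T0 library, was at least 2.81-fold higher against a limit of 3 counts per library, of 6 tested. With time Cdon and Smo, a co-receptor and the signal transducer, fell in HA (−1.11 and −1.01) beside Gas1, of 5 tested, and 0 of 4 passed in IgG. Ptch1, Hhip, Shh and Ihh were not analysed here.

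Of 14 genes of adventitial fibroblasts, the cells that Pi16 marks, 9 were tested at T0. Efhd1 and Thy1 were higher in HA (3.66 and 0.86), and Anxa3, Ly6a and Cd55 were lower (−1.53, −1.88 and −2.21). At T3 Thy1 was higher (0.93) and Anxa3 lower (−2.57) of 6 tested. With time 3 of 10 rose in HA, Has1, Creb5 and Ackr3, with Has1, a hyaluronan synthase, at 1 to 3 counts per HA T0 library and 11 to 18 per HA T3 library, and 4 fell, among them Cd248 (−0.74), Ly6c1 (−1.39) and Sema3c (−0.83). The HA T0 libraries held 2 to 13 counts of Creb5. In IgG 0 of 6 passed, and Has1 and Creb5 were not among those 6. The mean IgG level of Has1 was 0.258 CPM at T0 and 19.8 CPM at T3, from 1 and 6 counts. For Creb5 it was 2.23 and 12.5 CPM, from 4 counts in each group. Genes listed for PDGFRA-positive muscularis cells gave 0 calls of 3 at T0, 0 of 1 at T3, Gja1 lower with time in HA (−0.84) of 2 and 0 of 1 in IgG.

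**Figure D4:**
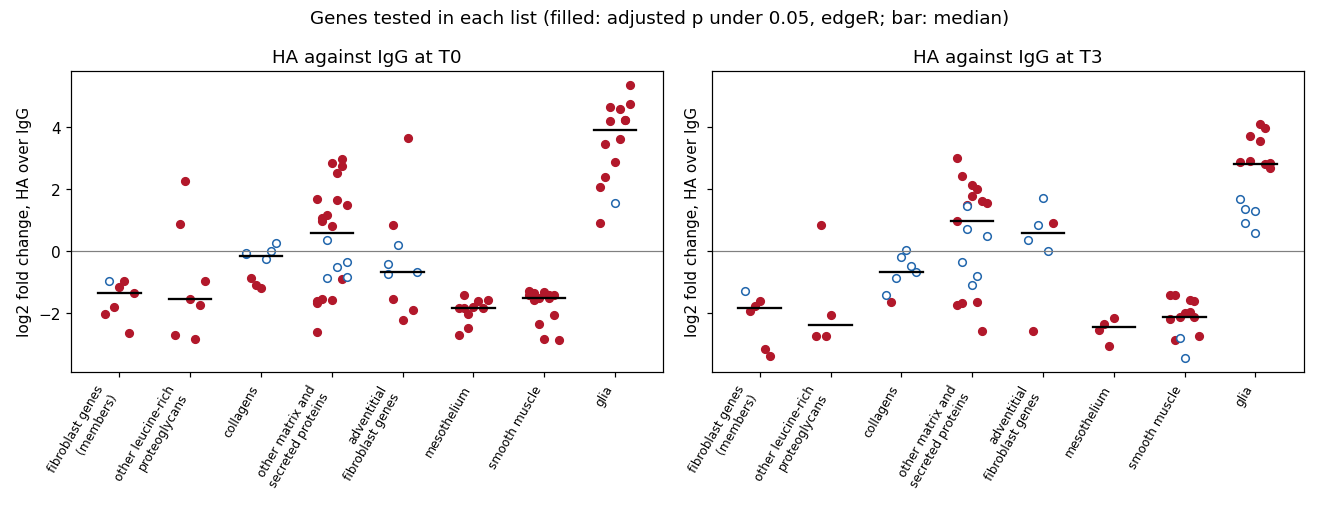
Log2 fold change of HA over IgG at T0 and T3 for the genes tested in 8 lists, filled where the edgeR adjusted p was under 0.05, with a bar at the median of each list. The fibroblast genes lie below 0 with the mesothelial and smooth muscle genes, glial genes lie above 0, and other matrix proteins lie on both sides.

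Tested genes of the mesothelium, the outer lining of the gut wall, shared the direction of the tested fibroblast genes in the 4 comparisons. Their median change with time was larger, most of all in IgG, where the fibroblast median was −0.67. At T0, 10 of 10 were lower in HA, among them Gpm6a (−2.71), Upk3b (−1.83) and Krt19 (−2.02), and at T3, 4 of 4 tested. With time 9 of 9 fell in HA, with a median of −2.69 and Slpi, Upk3b and Msln leading (−3.38, −3.02 and −3.15), and 6 of 9 in IgG, with a median of −3.01. The summed level of the 10 genes was 547.6 to 620.4 CPM in HA T0 and 68.8 to 79.6 CPM in HA T3, and 1445 to 2676 CPM in IgG T0 and 238.3 to 494.9 CPM in IgG T3. Their part in the results of the fibroblast genes was not tested.

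**Figure D5:**
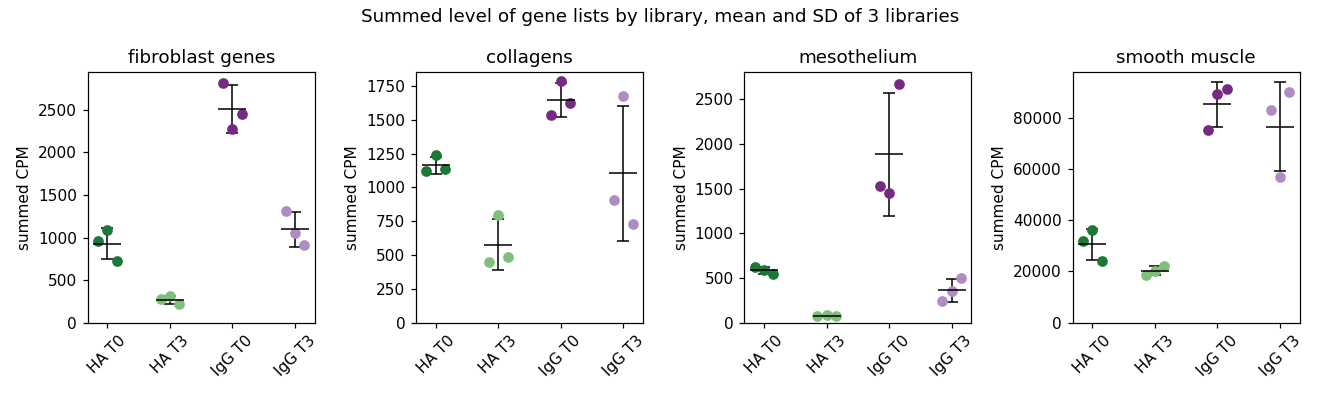
Summed CPM of the 8 fibroblast genes, 9 collagens, 10 mesothelial genes and 13 smooth muscle genes in each library, with the mean and SD of 3 libraries on linear axes. Fibroblast and mesothelial sums are lower at T3 than at T0 in both pull-downs, and HA lies below IgG at each time.

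Smooth muscle genes shared the direction of the fibroblast genes between the antibodies, but 4 of 13 fell with time in HA and 0 of 13 in IgG. Their summed level was 24054 to 36000 CPM in HA T0, 18470 to 22046 CPM in HA T3, 75198 to 91375 CPM in IgG T0 and 56802 to 89899 CPM in IgG T3. Macrophage genes were lower in HA for 3 of 11 at T0 and 3 of 5 at T3, and fell with time for 4 of 7 in HA and 0 of 6 in IgG, with sums of 472.0 to 820.2, 215.3 to 372.5, 800.1 to 1160.4 and 673.8 to 800.7 CPM in the same order of groups. Pericyte genes were lower in HA for 1 of 4 at T0 and 2 of 4 at T3. They fell with time for 2 of 4 in HA and 0 of 4 in IgG. The pericyte sums were 718.0 to 1101, 587.8 to 1008, 1345 to 1541 and 923.7 to 5991 CPM. In IgG T3 Rgs5 alone ran from 271.7 to 5378 CPM and made up most of the highest sum. No gene of the mesothelial, smooth muscle, macrophage or pericyte lists was at 0 in all libraries of a group. Their part in the fibroblast results was not tested either.

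The gene profile nearest to each fibroblast gene over the 12 libraries was sought among 10306 other genes by the root mean square difference of mean-centred log2 CPM, where smaller is nearer. Dpt had the nearest neighbours, Smoc2 at 0.19, Sh3bgr at 0.23 and Pdlim3 at 0.26. Those of Dcn were C3 at 0.29, Ackr4 at 0.39 and Fbxl22 at 0.42, and Gas1 shared Fbxl22 (0.44) and Ackr4 (0.45) with it after Ssfa2 (0.37). Lum was nearest to the proteoglycans Aspn (0.39) and Ogn (0.41), followed by Ttll7 (0.51), and not to its chromosomal neighbour Dcn (0.89). Pdgfra had Phgr1 (0.54), Filip1l (0.55) and Rgs1 (0.58), and Cd34 had C3 (0.55), Frem2 (0.59) and Filip1l (0.59). Clec3b had Tnnt2 (0.29), Smim24 (0.33) and Mmp23 (0.33), and Pi16, at counts near the limit, Fastkd2 (0.32), Speg (0.35) and Ehbp1 (0.36). Among the 8 genes themselves the nearest pair was Dcn and Cd34 (0.45), followed by Dcn and Gas1 (0.51) and by Dpt and Clec3b (0.56). All of these libraries share the same depth differences between groups, and the distances are descriptions with no test.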

How the data were processed

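RNA from RiboTag pull-downs of 12 samples, in 4 groups of 3 taken from the labels, was sequenced as 3′ libraries with molecular identifiers (UMIs). What the authors deposited is a table of raw UMI counts. Per the labels and the study's methods, the authors trimmed reads with cutadapt, aligned them to mm10 with STAR 2.4.2a and counted with HTSeq over the 3′ region of each gene (1000 bases upstream to 100 downstream of the 3′ end). Sample files held the same counts as the table (0 differences).

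CPM was computed over library totals, and edgeR 4.0.16 (R 4.3.3) gave robust quasi-likelihood tests with TMM scaling and its default filter on low counts, adjusted by Benjamini-Hochberg over all genes tested. Each fit used the 6 libraries compared, and the interaction used 12. Alternatives were RLE or total-count scaling, 2 other count filters, DESeq2 1.42.0, a fit of all 12 libraries, replicate blocks, TMM-scaled CPM and leaving out each library. Leaving out the IgG T3 libraries of animals 1 and 3 together was added after seeing the data. Tests were checked on simulated data. Intervals of pooled ratios are 95% exact intervals and, like the limit of 3 counts, cover counting error only.

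The pairing of HA and IgG libraries comes from the split lysate. Their deviations from the group means correlated across 10314 genes at 0.268, 0.269 and 0.273 for T0 animals 1, 2 and 4 and at 0.162, 0.153 and 0.0887 for T3 animals 1, 3 and 4. The fibroblast genes and companion lists were chosen with earlier results of these data known. Genes named from a list were the up to 3 with the smallest adjusted p per direction, beside the 8 fibroblast genes and the 3 nearest profiles of each.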

Additional observations from a re-analysis of the deposited data

How the results depend on the processing

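Over 514 values of 35 single-gene results, 472 kept their direction and their side of the threshold, 13 no longer passed, 9 newly passed and 20 changed sign, 18 of them in the interaction and 0 with either value past the threshold. The interaction of Dcn changed sign with RLE scaling (−0.032), total-count scaling (−0.25) and DESeq2 (−0.034), that of Clec3b with the animal as a block (0.19), and those of Gas1 (0.39) and Cd34 (1.18) without both IgG T3 libraries with the fewest counts. Leaving out single libraries gave −0.12 to 0.28 for Dcn, −0.81 to 0.49 for Lum, −0.90 to 0.17 for Gas1, −0.51 to 0.43 for Clec3b and −1.02 to 0.26 for Cd34. Clec3b over time changed sign in HA with the mouse number as a block (0.13) and in IgG without those 2 IgG T3 libraries (0.013). The number of fibroblast genes called with time in IgG went from 2 to 1 with RLE scaling and to 1 with total-count scaling, and was 1 to 2 when single libraries were left out, with Dcn the gene that remained; the cause was not tested. The summed level of HA T3 was 268.1 CPM as reported and 316.5 CPM when scaled by TMM. With the animal as a replicate block, 7 of 7 genes were called at T0, since Clec3b passed, and 5 of 6 at T3, and no other call between antibodies changed. A block on the mouse number across time, which pairs no animals, gave 5 genes in HA and 2 in IgG, as reported, with correlations for numbers 1 and 4 of 0.157 and 0.0111 in HA and 0.169 and 0.0116 in IgG. The single-gene calls that moved were those of Lum at T0 and in HA over time, Clec3b between antibodies and in HA over time, and Gas1 at T3 and in IgG over time. Over all genes, calls in the interaction ranged from 5 to 158 around the reported 34, calls with time in IgG from 162 to 705 around 285, and calls between antibodies at T3 from 849 to 2145 around 1578. Without a count filter Pi16 had a log2 fold change of −1.59 at T0 (edgeR adjusted p = 0.0616) and −2.28 at T3 (edgeR adjusted p = 0.0447), and Cd34 −2.22 at T3 (edgeR adjusted p = 0.136). The depth of IgG T3 limits what can be seen of Pi16, Cd34 and Pdgfra.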

Other observations

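Lists for further cell types of the muscularis did not follow the fibroblast genes throughout. Of the neuronal genes tested, 8 of 12 were lower in HA than in IgG at T0 and 3 of 9 at T3 (edgeR), while 4 of 10 rose with time in HA and 0 of 9 passed in IgG. The genes of interstitial cells of Cajal were higher in HA for 2 of 3 at T0 and 2 of 2 at T3 (Kit and Ano1), and the same genes fell with time in HA, with log2 fold changes of −1.11 for Kit and −0.73 for Ano1, while 0 of 2 passed in IgG.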
